A study of Homo sapiens with 2 samples.

Results

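The Hedgehog pathway genes examined here were the receptors and co-receptors PTCH1, SMO, BOC and GAS1, the ligand-binding inhibitor HHIP, the cytoplasmic inhibitor SUFU, and the transcription factors GLI1, GLI2 and GLI3. Every probe whose gene symbol in the deposited annotation was one of these 9 names was taken, which gave 17 of 58199 probes, from 9 of 34757 symbols on the array. RNA came from A375, a human melanoma cell line, and was measured on a 1-colour Agilent array whose probes are 60 bases long. One culture had been transfected for 48 h with a control siRNA (NC) and the other with an siRNA against THOC2 (si-THOC2), a subunit of the THO complex that takes part in mRNA export. There was 1 array per condition and no replicate, so nothing could be tested between the conditions, and each difference given is one between 2 arrays. The title and the description of each sample name the opposite condition to its source field. The titles and descriptions were followed, and as they assign the arrays, the 2 probes of THOC2 itself read 136 and 67.3 with NC and 40.9 and 35.1 with si-THOC2, log2 fold changes of -1.42 and -0.63. Several THOC2 siRNAs are listed in the methods, without saying which was used for the arrays.

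In Hedgehog signaling a secreted ligand binds PTCH1 and relieves its block of SMO, which then acts in the primary cilium to free GLI proteins from SUFU. BOC and GAS1 help present the ligand to PTCH1, and HHIP binds the ligand and takes it away. PTCH1, HHIP and GLI1 are themselves switched on by GLI proteins, so their mRNAs serve as readouts of the pathway. In melanoma cells GLI activity has been studied for its part in growth.

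HHIP was the member that differed most between the arrays. It was 1.69-fold lower with si-THOC2 at the probe measured on both arrays. At a probe well above background with NC only it was at least 2.26-fold lower with the dim side at the detection limit. With another background correction (normexp) the log2 fold changes of these probes were -0.27 and -0.33, short of 2-fold. PTCH1, SMO and GLI3 differed by less than the technical SD of their probes, with log2 fold changes of 0.06, 0.02 and 0.01. GLI1 was at -0.33 and GAS1 at 0.26. SUFU and GLI2 each had 1 probe that was lower (-0.58 and -0.41) and 1 brighter probe near no difference (0.01 and 0.12). BOC had no signal well above background on either array. Of the 3 Hedgehog ligands, only DHH was well above background with NC. Its 1 probe was not with si-THOC2, and with that dim side at the detection limit it was at least 5.27-fold lower. With normexp its log2 fold change was -0.96, short of 2-fold.

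A signal here is the scanner software's processed signal, the brightness of a spot after the background trend fitted across the array was removed. By the scanner software's mark, 10 of the 17 probes stood well above background on both arrays, 2 on the NC array only (of HHIP and GLI2), and 5 on neither. The lowest signals that were well above background were 14.7 (NC) and 15.9 (si-THOC2), and only the probes of SMO and GLI3 had signals over 100 on both. The processed signals of all 12 compared probes were lower on the si-THOC2 array, whose 75th percentile over all probes was also lower (6.31 against 6.62 in log2 signal). Fold changes were therefore taken after each array's 75th percentile had been subtracted. After this scaling 6 of the 12 were below 0 and 6 above. Of the 10 measured on both arrays, 4 were below 0, while 43.1% of all 22207 such probes were.

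**Figure D1:**
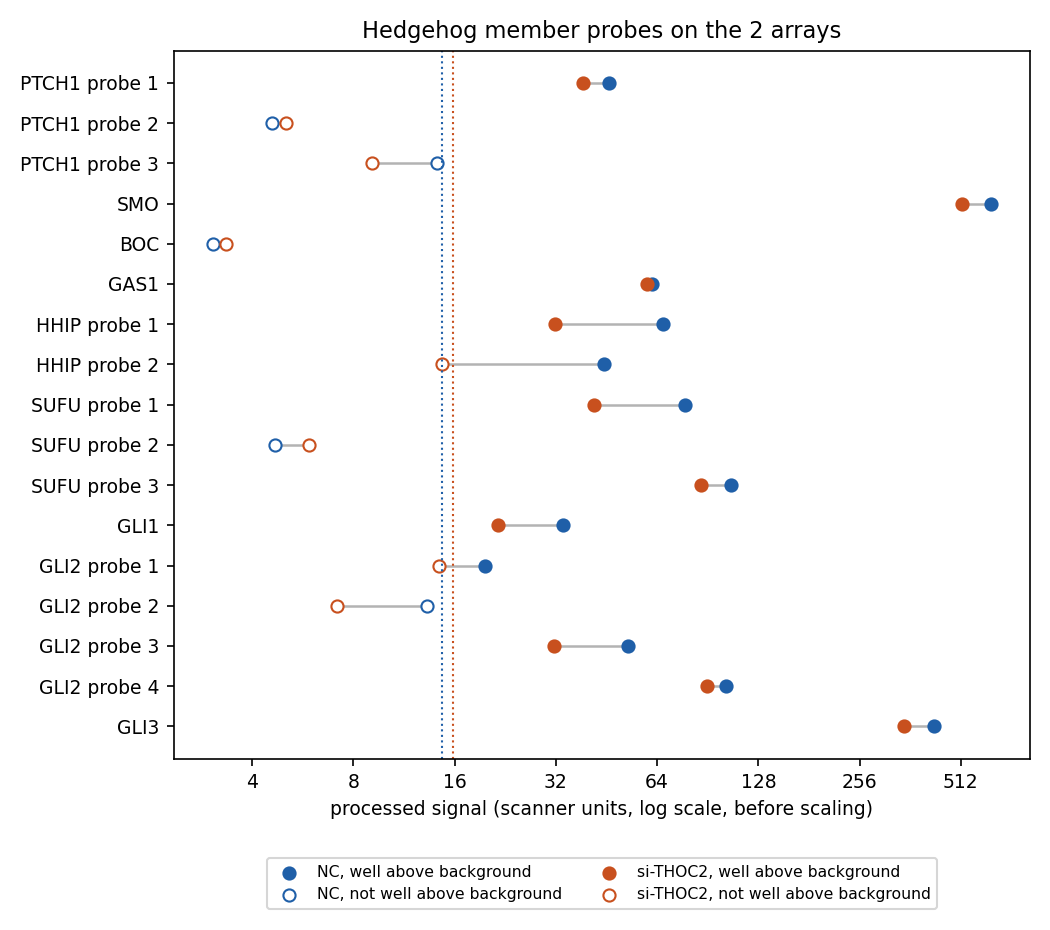
Processed signal of each Hedgehog member probe (rows, numbered by genome position where a gene has several) on the NC and si-THOC2 arrays, on a log axis and before scaling. Filled points were well above background, open points were not, and dotted lines mark the lowest detected signal of each array. HHIP probe 2 goes from 44.4 with NC to below the limit with si-THOC2, and the SMO and GLI3 probes are far above the limit on both.

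The technical error comes from 300 probes printed on several spots. For a member it is the median SD of the log2 fold change over the 15 repeated probes nearest in signal, which ran from 0.06 at the signal of SMO to 0.31 at that of the dimmest GLI2 probe compared. It holds no differences between cultures, and 50.7% of all probes on both arrays differed by more than 2 such SDs. Of the 10 member probes on both arrays 4 did, all lower: HHIP, SUFU, GLI1 and GLI2 with 1 probe each. Only 5 of the repeated probes had mean log2 signals from 4 to 6, so SDs there draw on brighter or dimmer probes too. The median SD of those 5 was 0.17, and by it GLI1, at -0.33, would fall short of 2 SDs. The member probes were each printed on 1 spot.

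At a fold of 2, 1 of the 12 compared member probes was called lower with si-THOC2 (the second probe of HHIP) and none higher. Over all 25345 compared probes 3.33% were called lower and 2.93% higher, so the share among the members rests on a single probe. That probe was well above background with NC only, and of all 2409 such probes, which had passed the filter through NC, 31.7% were lower by 2-fold. Of the 8 member genes compared, 1 (HHIP) was called lower by the mean of its probes and none higher, beside 3.34% and 2.96% of all genes. The HHIP mean of -1.02 uses the dim probe as measured, and it was short of 2-fold at -0.96 with dim signals at their limit and at -0.997 with lowess centring. No member probe on both arrays passed 2-fold, where 0.365% of all probes were lower by that much and 0.829% higher. The median log2 fold change of these 8 genes was -0.07, beside 0.02 over all 17514 genes compared.

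**Figure D2:**
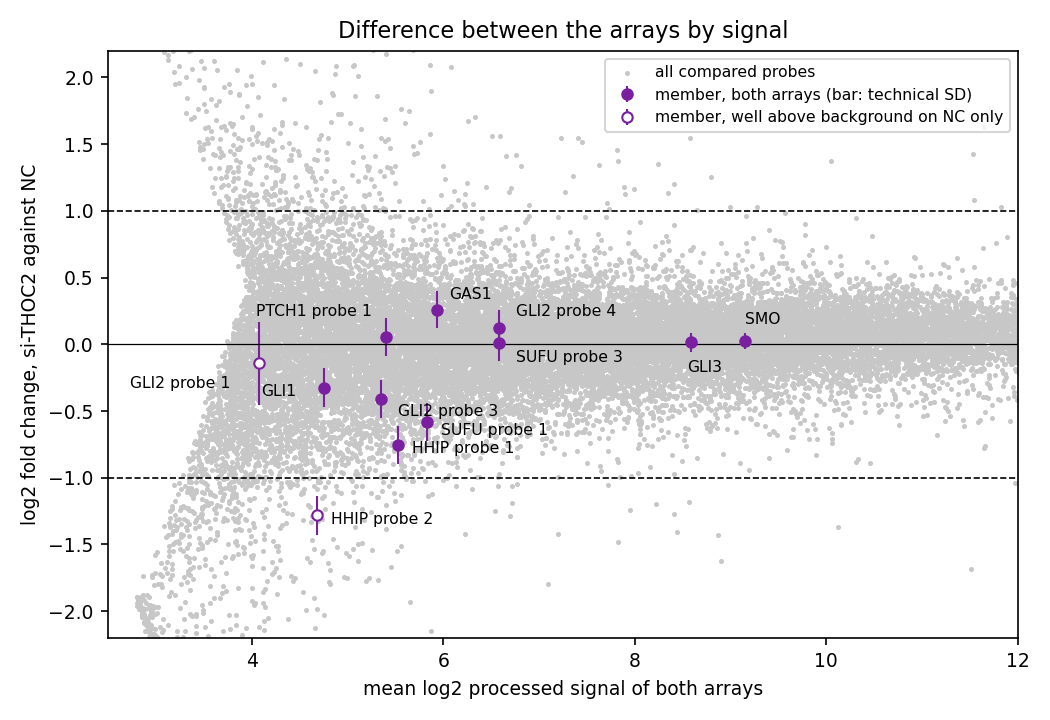
Log2 fold change of si-THOC2 against NC for each probe compared, against its mean log2 processed signal. Grey points are all compared probes within the axes (2795 lie outside them), purple points the 12 member probes with bars of 1 technical SD, and dashed lines mark 2-fold. The open HHIP probe lies below the lower dashed line, and the members at the highest signals, SMO and GLI3, lie at 0.

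PTCH1, the receptor that holds SMO in check, had 3 probes and only 1 with a signal well above background. That probe, at chr9:98206129-98206188 on the minus strand (all probe positions are those of the deposited annotation, on hg19), had signals of 46.0 (NC) and 38.6 (si-THOC2). Its log2 fold change was 0.06 with a technical SD of 0.14, so no difference was detectable. The other PTCH1 probes had signals of 4.59 and 14.2 with NC and of 5.04 and 9.08 with si-THOC2. None of these was well above background, and no fold is given.

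SMO, the transmembrane protein that carries the signal inward, had 1 probe (chr7:128853237-128853296, plus strand), with signals of 629 on the NC array and 516 on the other. Its log2 fold change was 0.02 with a technical SD of 0.06, the smallest technical error among the members. BOC, a co-receptor, had 1 probe, with signals of 3.05 and 3.35, under the limit on each array. GAS1, a co-receptor anchored to the membrane, was measured by 1 probe (chr9:89559894-89559953, minus strand). Its signals were 62.0 (NC) and 59.9 (si-THOC2), and the log2 fold change after scaling was 0.26 with a technical SD of 0.14. Of 1600 compared probes within 0.25 of its mean log2 signal, 78.9% had a lower fold change, so GAS1 lay well inside the spread of probes of like signal.

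HHIP, which binds Hedgehog ligands at the cell surface, was among the genes the study went on to measure by RT-qPCR, so it is no independent choice here. By that assay the paper reports lower HHIP in both A375 and M14 cells after THOC2 knockdown. The HHIP probes on the plus strand of chromosome 4 are shown because they carry the main difference among the members. The first is given in full and the second by its first 30 bases. The first has 2 reading frames without a stop codon over its 60 bases.
HHIP at chr4:145658929-145658988: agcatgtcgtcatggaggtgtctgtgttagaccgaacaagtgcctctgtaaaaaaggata
HHIP at chr4:145666336-145666395, first 30 bases: gtaaatgcatgcctgaaatttggttagatt
The first probe read 66.5 on the NC array and 31.8 on the si-THOC2 array, and its log2 fold change was -0.75 with a technical SD of 0.14. The second, which starts at base 9984 of its annotated transcript against base 2602 for the first, read 44.4 and 14.7, the latter not well above background. As measured its log2 fold change was -1.28, and with the dim side at the limit it was at least 2.26-fold lower. The difference between the arrays thus rests on the first probe, which was measured on both, since the second was compared only through its NC signal. Among probes within 0.25 of its mean log2 signal, 3.69% lay below the first. The array was divided into 128 blocks of spots, and in the blocks of these probes 0.913% and 2.90% of the compared probes were called lower, both under the 3.33% of the whole array. With normexp background correction, an alternative that adds an offset of 50 to the corrected signals, the log2 fold changes were -0.27 and -0.33, and the 2-fold call was lost.

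SUFU, which binds GLI proteins in the cytoplasm and limits their entry into the nucleus, had 3 probes on the plus strand of chromosome 10. The pair measured on both arrays is shown because they disagreed, the first in full and the other by its first 30 bases. The first probe has 1 reading frame without a stop codon, and the other none, so the latter cannot lie wholly in coding sequence.
SUFU at chr10:104269001-104269060: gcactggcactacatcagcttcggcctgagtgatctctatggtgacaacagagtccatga
SUFU at chr10:104393028-104393087, first 30 bases: gctgcgacaagcagatttttgtaaaatttt
The first starts at base 448 of its transcript and read 77.4 (NC) and 41.7 (si-THOC2), for a log2 fold change of -0.58 and a technical SD of 0.14. The other starts at base 4761, and read 106 (NC) and 86.4 (si-THOC2), which after scaling was 0.01 on the log2 scale, with a technical SD of 0.13. Only the probe near the start of the transcript was lower, and 5.47% of probes of like signal lay below it. The remaining SUFU probe, across an exon junction by its genomic span of 971 bases, had signals of 4.67 and 5.91 and was not well above background on either array. The mean of the 2 compared probes was -0.29. The deposited annotation assigns the lower probe to transcript variant 2 and the other to variant 1, and whether variants differed was not tested.

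GLI1, the activator whose own gene is a GLI target, had 1 probe (chr12:57865971-57866030, plus strand). The first 30 of its bases are given because GLI1 mRNA is the usual readout of the pathway, and the whole probe has no reading frame without a stop codon.
GLI1, first 30 bases: atgtatagtctgtatacgttttgaggagaa
The probe read 33.5 (NC) and 21.6 (si-THOC2), and its log2 fold change was -0.33 with a technical SD of 0.15. Of the probes of like signal 23.7% lay lower still, and 9.47% of the compared probes in its block of the slide were called lower, against 3.33% overall. With normexp background correction the value was 0.01. With each block of spots centred on its own median it was -0.26. The GLI1 difference thus passed 2 technical SDs as processed here, fell short of them with block centring and was gone with normexp.

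GLI2, an activator that is processed to a repressor in part, had 4 probes on the plus strand of chromosome 2, and GLI3, mainly known as a repressor, had 1. The GLI2 probe below had the lowest value of those on both arrays, and it ends in a stop codon, shown in capitals, that closes an open reading frame.
GLI2 at chr2:121748192-121748251: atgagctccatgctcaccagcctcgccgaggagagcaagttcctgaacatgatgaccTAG
It read 52.3 (NC) and 31.7 (si-THOC2), for a log2 fold change of -0.41 and a technical SD of 0.14. The probe 1484 bases further along the transcript (chr2:121749676-121749735) read 102 and 89.9, which after scaling was 0.12 (technical SD, 0.13), so these neighbours differed in sign. Another GLI2 probe, at chr2:121684982-121685041, was well above background with NC only, with signals of 19.7 and 14.4, and with the dim side at the limit no difference remained. The last had signals of 13.3 and 7.16, not well above background on either array. The mean of the 3 compared GLI2 probes was -0.14, and the probes ran from -0.41 to 0.12. GLI3 (chr7:42000590-42000649, minus strand) read 426 (NC) and 347 (si-THOC2), with 0.01 as the log2 fold change and 0.07 as its technical SD.

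Among the probes on both arrays, the 4 that were lower by more than 2 technical SDs had NC signals from 33.5 to 77.4, a range that also held PTCH1 and GAS1. The 4 with signals over 100 with NC, those of SMO, GLI3 and the brighter probes of SUFU and GLI2, had log2 fold changes from 0.01 to 0.12. The lower probes were thus dimmer than these 4, while PTCH1 and GAS1, in the same dim range, were not lower. The part of signal in the differences of the dim probes was not tested. GC content of the 12 compared probes ran from 30% (GLI1) to 55%, and it was 45% for the first HHIP probe and 35% for the second.

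The letters GACCACCCA, the core of the site that GLI proteins bind, were searched on both strands of RefSeq promoter windows (GRCh38.p14) of 250 bases before to 50 after each transcription start. They occurred in 83 of 35116 windows (0.236%). Of the members, 7 were matched (13 windows in all), and GLI1 and GLI3 were not searched. The letters were found in 1 of the 5 windows of PTCH1, starting 172 bases upstream of the start on the strand opposite to the gene, and are shown in capitals because PTCH1 is a known GLI target.
PTCH1 at chr9:95509420-95509448, minus strand: gttgcctaccTGGGTGGTCtctctacttt
None was found in the windows of HHIP, SMO, GLI2, SUFU, BOC or GAS1. These are matches of letters, not binding sites.

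Genes that act around the members were grouped by role. Of 9 ligands and release factors, 6 were compared, 4 of them below 0, with a median of -0.10 beside 0.02 for all genes. DHH, the ligand known from peripheral nerve and testis, was the 1 of these 6 genes past 2-fold (lower), beside 3.34% of all genes. It had 1 probe (chr12:49483208-49483267, minus strand), shown by its first 30 bases because no other probe of these pathway lists was lower by as much.
DHH, first 30 bases: acatctgacgttttcctgcaaggtgggcta
The DHH probe read 104 (NC) and 14.7 (si-THOC2), the latter not well above background. Its log2 fold change as measured was -2.51 and it was at least 5.27-fold lower with the dim side at the limit. Like the second HHIP probe, it was compared only through its NC signal. In its block 2.97% of compared probes were called lower. With normexp background correction it was at -0.96. SHH and IHH, the other ligands, had no signal well above background on either array (both named after their values were seen). HHAT, which attaches the palmitate that ligands need, was at 0.11, and DISP1 and DISP2, which release ligands from the producing cell, were at -0.31 and -0.11. SCUBE1, a secreted relative of the release factor SCUBE2, had compared probes at 0.02 and 0.84.

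Other receptors and surface binders are given by gene. CDON, a co-receptor related to BOC, was at -0.05, the endocytic receptor LRP2 at 0.19, and the glypicans GPC3 and GPC6 at 0.44 and -0.40.

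The cytoplasmic regulators comprised 21 genes, of which 20 were found on the array and compared. Of these 9 were below 0, none passed 2-fold in either direction, and the median was 0.05. Among all genes 3.34% were lower and 2.96% higher by 2-fold, so no call among 20 genes is near those shares. The kinase GSK3A, which marks GLI proteins for processing, was at 0.12, GRK2, which phosphorylates SMO, at 0.43, TULP3, which brings receptors into the cilium, at 0.10, and the ubiquitin ligase scaffold CUL3 at 0.06.

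For ciliary transport, 12 of 13 genes were compared and 9 were below 0, with a median of -0.14, while 46.6% of all genes were below 0. IFT80, a part of the machinery that carries proteins along the cilium, was the gene that passed 2-fold and was well above background on both arrays. IFT80 was thus 1 of the 12 genes compared, beside 3.34% of all genes lower by 2-fold. Its probe (chr3:159975027-159975086, minus strand) is shown by its first 30 bases.
IFT80, first 30 bases: acacacacaaagggatagagagattacctc
The IFT80 probe read 71.1 (NC) and 24.9 (si-THOC2), and its log2 fold change was -1.21 with a technical SD of 0.14. Lower values were held by 0.948% of probes of like signal, and 2.54% of those in its block were called lower. With normexp background correction it was at -0.39. KIFAP3 and KIF3B, parts of the kinesin motor that moves cargo outward, were at -0.13 and -0.11, IFT52 was at -0.02, and the ciliary phosphatase INPP5E was at 0.09.

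Of 22 further GLI target genes, 14 were compared, 7 below 0 and 7 above, and none passed 2-fold. Among all genes 3.34% were lower and 2.96% higher by 2-fold, so no call among 14 genes is near those shares. The median of these targets was 0.02, the value of all genes. The cyclin gene CCND1 was at -0.03 with signals of 3483 (NC) and 2762 (si-THOC2), while CCNE1, another cyclin, was at 0.48. SNAI1, a repressor of E-cadherin, was at 0.06 and RAB34, a GTPase of cilium formation, at 0.24. The 8 targets not detected were CCND2, MYCN, SPP1, SOX9, NKX2-2, NKX6-1, PAX6 and BMP4.

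**Figure D3:**
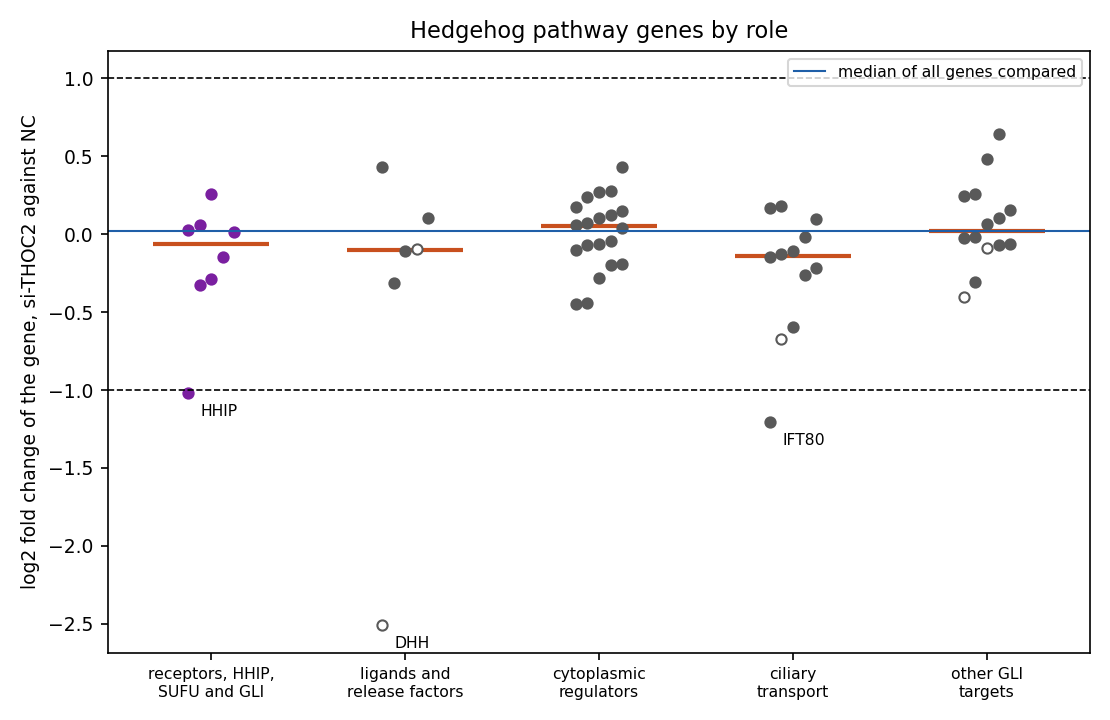
Log2 fold change of each compared gene, the mean of its compared probes, grouped by role in the Hedgehog pathway (other receptors and surface binders not plotted). Filled points have at least 1 probe well above background on both arrays and open points none, orange bars are group medians, the blue line is the median of all genes and dashed lines mark 2-fold. HHIP, DHH and IFT80 lie below -1 and no gene plotted lies above 1.

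The cell type on the label was checked against its markers. Of 12 melanocyte and melanoma markers 9 were well above background on at least 1 array, among them SOX10 and MIA, while PMEL, TYR and TYRP1, which serve in pigment formation, were not. Their summed scaled signal was 896 with NC and 837 with si-THOC2. Of 12 markers of epithelial, immune, endothelial and fibroblast cells 6 were, and those that were not included EPCAM, KRT5, CDH1, COL1A1 and LUM. The summed scaled signal of this list was 2.49 with NC and 4.66 with si-THOC2. DCN, a proteoglycan of fibroblasts, was at 1.56 and both KRT14 probes were higher with si-THOC2. PTPRC, CD3E and PECAM1, each on both arrays, were at 0.39, 0.87 and 0.43. Their probes were dim, at 27.4, 25.3 and 16.2 with NC and 28.9, 37.4 and 17.6 with si-THOC2. The lowest signals well above background were 14.7 (NC) and 15.9 (si-THOC2). Only 1 of 5 PTPRC probes and 1 of 3 PECAM1 probes were compared. CDH5, an endothelial cadherin, was the 1 compared gene of this list below 0. It read 17.0 with NC and 5.40, not well above background, with si-THOC2, which gives no fold. MLANA, a melanocyte antigen, had 1 of its 2 probes compared. That probe was detected with si-THOC2 only, at a signal of 18.7, and was at least 1.58-fold higher. DCT, measured on both arrays, was at 0.75, with signals of 18.0 (NC) and 24.4 (si-THOC2). S100B, brighter at 199 (NC) and 102 (si-THOC2), was at -0.66 with a technical SD of 0.10. Of the 9 melanocyte and melanoma markers compared, 4 were below 0 and 5 above. The part of these marker differences in the Hedgehog values was not tested.

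Over 9 other ways of processing, the first HHIP probe ran from -0.83 to -0.27 and the lower SUFU probe from -0.63 to -0.26, both below 0 in each. The PTCH1 probe ran from 0.05 to 0.07 and GAS1 from 0.14 to 0.29, both above 0 in each. Taking only probes on both arrays, using no detection filter and setting dim signals at their limit cannot change a probe measured on both arrays. Those settings therefore add nothing to the agreement in sign. The authors' values nearly repeat quantile normalization, each with -0.77 for the first HHIP probe. The values of GLI1, GLI3, SMO, the brighter SUFU probe and the dimmest GLI2 probe compared took both signs.

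**Figure D4:**
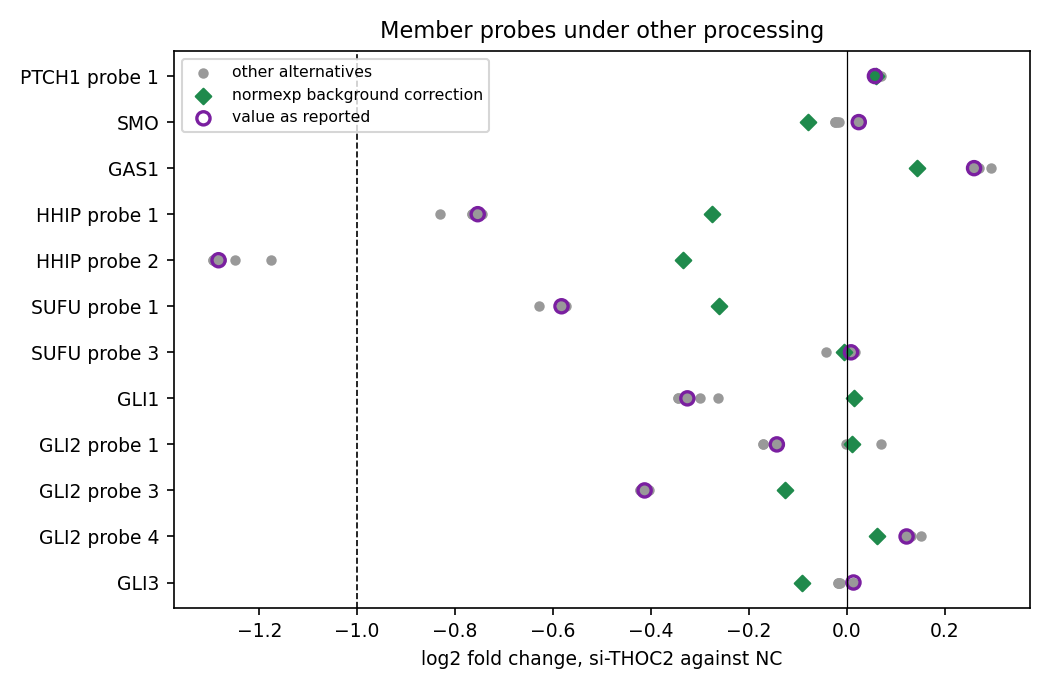
Log2 fold change of the 12 compared member probes as reported (purple circles), with normexp background correction (green diamonds) and under the other alternatives (grey points). HHIP, the first SUFU probe and GLI2 probe 3 stay below 0, and normexp brings the HHIP probes to -0.27 and -0.33, above the dashed line at -1.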

How the data were processed

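RNA of 1 A375 culture with NC and 1 with si-THOC2 was hybridized to 1 array each, on 1 slide in 1 scan. The deposited scanner output, made by the authors with Agilent Feature Extraction 10.7.1.1, gives an intensity per spot, from which the file header shows that trends across the array had been removed (spatial and multiplicative detrending). The authors' deposited table of log2 normalized values, equal in distribution between arrays, was an alternative. Their list of differing probes, which holds fold changes and directions, was not used. Control and outlier spots were left out, no spot was saturated, spots of a probe were averaged in log2, and each array's 75th percentile was subtracted. A probe was compared if well above background on at least 1 array and called at 2-fold. A bound sets the dim side at the lowest signal well above background of that array, or its own if higher. The member genes and gene lists were chosen with earlier results of these data known. Named in the text were all members, THOC2 and, from each other Hedgehog list, genes past 2-fold and up to 4 of the highest signal. Marker genes were named by list. CSNK1E was not matched on the array and GRK2 was matched by its Entrez identifier. Python 3.11.15, numpy 2.4.6, pandas 2.3.3, statsmodels 0.14.6 and, for normexp, R 4.3.3 with limma 3.58.1 were used, and the comparison was tested on simulated data. Precision is limited by having 1 array of each kind, and p-values were not computed. Transcript positions are the scanner file's start values, whose steps of 1318 and 1484 bases between the 3 distal GLI2 probes equal those on hg19. Exons and UTRs were not analysed here. Some genes of the lists are not reported here.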

Additional observations from a re-analysis of the deposited data

How the results depend on the processing

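No paired analysis was possible because each condition has 1 array, and leaving an array out would leave nothing to compare. All alternatives were set with earlier results of these data known. A gene value counts as moved if it changed by more than its technical SD, a count if by more than 1.5 times.

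The single lower call among the member probes was lost (0) with normexp background correction, with probes on both arrays only and at a fold of 3, and a fold of 1.5 gave 2. HHIP, at -1.02 as the mean of its probes, was at -0.75 over probes on both arrays and -0.30 with normexp, and its mean was also short of 2-fold with lowess centring (-0.997) and with dim signals at their limit (-0.96), and THOC2, at -1.03, was at -0.51 with normexp. The causes of the changes with normexp were not tested. Over all probes, 844 were lower and 743 higher, against 33 and 79 with normexp, 81 and 184 on both arrays (fewer probes tested), 1929 and 3127 with no detection filter, 225 and 476 with dim signals at their limit, 1948 and 1556 at a fold of 1.5 and 502 and 447 at a fold of 3. The median of the other GLI targets was 0.13 on both arrays, and that of the ligands and release factors 0.047 with no detection filter, where the median of all genes moved from 0.02 to 0.24. The median of the member genes ran from -0.09 with the authors' values to 0.02 with no detection filter. Signals near background limit what can be said of the dim probes.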

Other observations

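Relatives of the members were looked at after the lists had been set. HHIP-AS1, the antisense gene beside HHIP, had signals of 8.36 with NC and 10.2 with si-THOC2, and neither was well above background. The HHIP-like genes HHIPL1 and HHIPL2 were not well above background on either array. Among the GLI-similar zinc finger genes, GLIS1 read 41.6 (NC) and 15.9 (si-THOC2), the latter not well above background, and was at least 2.11-fold lower, in a block where 7.85% of compared probes were called lower. GLIS2 had signals of 446 and 499, a log2 fold change of 0.47 with a technical SD of 0.07. One GLIS3 probe was well above background with NC only, with signals of 14.8 and 14.6, which gives no fold, and the other on neither array.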
